A study of Ipomoea batatas with 9 samples.

Results

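Sweetpotato storage roots kept in a store at 4 °C were compared with roots that had not been stored, by RNA sequencing. The comparison uses 6 of the 9 libraries of the series, chosen by their treatment label: 3 from roots at 4 °C and 3 from roots not stored. All were from the cultivar Xushu 18 (Ipomoea batatas), each library from a pool of 7 roots, and the store at 4 °C was held at 85% relative humidity. Another group, 3 libraries of roots stored at 14 °C and the same humidity, shared in estimating the spread, and its means are given where they help to place a value. A comparison with 14 °C shares libraries with this one and is not independent of it. The series was made to find genes of the root that respond to chilling. Roots were sampled repeatedly during storage, but no source used here says which sampling was sequenced. Time in store, storage as such and cold therefore cannot be told apart against roots not stored. The label that describes RNA extraction names retina as the tissue, whereas the tissue label of every sample is root.

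The sweetpotato storage root is a thickened root whose cells fill with starch in amyloplasts and with sporamin, a trypsin inhibitor that serves as the main storage protein. The plant is of tropical origin, and its roots suffer chilling injury in the cold, with tissue browning, altered respiration and decay. Plants in general meet cold through calcium and MAP kinase signals, DREB and other transcription factors, sugars, altered membrane lipids and phenolic compounds made from phenylalanine.

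The deposited table held 110110 assembled contigs, of which 39159 carried a gene symbol, 20450 a product description, 13769 a KEGG pathway and 36871 a GO term. Contigs are given by symbol, where they have one, and identifier. The species is polyploid, so a gene can appear as several contigs, and reads from copies that are nearly alike may be shared out among them. No source used here gives the strand, so a gene and its antisense partner cannot be told apart. Levels are in CPM, the count of a contig per 1000000 counts after scaling between libraries, and are not corrected for length. Fewer cells of a kind and less RNA per cell cannot be told apart in bulk samples such as these. Nothing in the labels says how the 3 pools of a group differ, so p-values measure the spread between pools, with n = 3 for every mean below and errors given as SD unless stated.

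Libraries at 4 °C held 71.1e6 to 85.6e6 estimated counts and those of roots not stored 78.7e6 to 95.4e6. A floor of 3 counts, the upper limit that a count of 0 allows, was 0.035 to 0.0422 CPM at 4 °C and 0.0314 to 0.0381 CPM in roots not stored before scaling, with counting error alone in view. The top 100 contigs by count held 13.5% to 14.4% of the counts at 4 °C, against 27.2% to 30.7% in roots not stored. It took 2250 to 2386 contigs to hold 50% of the counts at 4 °C and 1095 to 1460 contigs in roots not stored.

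The root label was checked against storage root markers, the contigs of sporamin and of the symbols BMY1 (beta-amylase), WAXY and AGPS1 (starch synthesis). These summed to 568, 507 and 245 CPM in the libraries at 4 °C, against 134000, 124000 and 93700 CPM in roots not stored, and 67700 ± 4660 CPM at 14 °C. The defining markers were thus high in roots not stored and at 14 °C, and far lower, though not at 0, in the libraries labelled 4 °C. The labels do not say whether the roots at 4 °C showed injury or decay when sampled, and that state cannot be told apart from storage or cold in any value below. Markers of green tissue (photosystem and light-harvesting proteins and the small subunit of Rubisco) summed to 210, 205 and 174 CPM at 4 °C, against 2520, 2180 and 1720 CPM in roots not stored. Neither group was at 0, and of 110 contigs 69 fell and 2 rose in the test described next. Markers of dividing cells, largely histones, summed to 3430, 3240 and 3040 CPM at 4 °C, against 2020, 1830 and 1360 CPM in roots not stored, and 74 of 133 rose, 10 fell and 49 did not pass. A list of cyclins and cyclin-dependent kinases changed less: 52 of 152 contigs rose, 18 fell and the sum was 1.04 times as high. All 3 marker sums differed between the same libraries as every result below, and their part in those results was not tested.

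In the edgeR quasi-likelihood test, 49812 of 94802 tested contigs passed a false discovery rate of 0.05, which is 52.5%. Of these, 24642 rose (26.0% of those tested) and 25170 fell (26.6%). The change was at least 2-fold for 17675 that rose (18.6%) and 19764 that fell (20.8%). The libraries of both groups did not overlap for 60.0% of contigs and were higher at 4 °C for 30.1%. So large a share of changed contigs is the setting in which each gene group has to be read. Contigs with a product description rose more often, at 38.6%, and fell less often, at 23.1%, and their median log2 fold change was 0.29, against -0.02 for all tested contigs. These 2 shares are the background for the gene groups below. The background of 38.6% and 23.1% holds more rises than falls, so lists called even or split below, with similar counts both ways, do not match it. It is not matched for level, on which the shares depended. At 0.1 to 1 CPM (mean of both groups) 17.4% of tested contigs rose and 22.6% fell, against 45.9% and 27.5% at 10 to 100 CPM. Once the higher group reached 5 CPM, 42.7% rose and 31.5% fell. A list that departs from the background may therefore differ in level alone. For comparison, 47.8% of contigs passed for 4 °C against 14 °C and 30.9% for 14 °C against roots not stored.

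Large changes were common in both directions. Among called contigs with at least 5 CPM in the higher group, 941 rose and 985 fell by at least 4 on the log2 scale, and 145 rose and 110 fell by at least 8. Of the 39 contigs with a mean over 1000 CPM across both groups, 12 rose, 22 fell, and the median log2 fold change was -2.09. Several contigs of one symbol did not always move together. Of 4485 symbols with at least 2 called contigs, 1724 had only contigs that rose, 1076 only contigs that fell and 1685 had both.

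**Figure D1:**
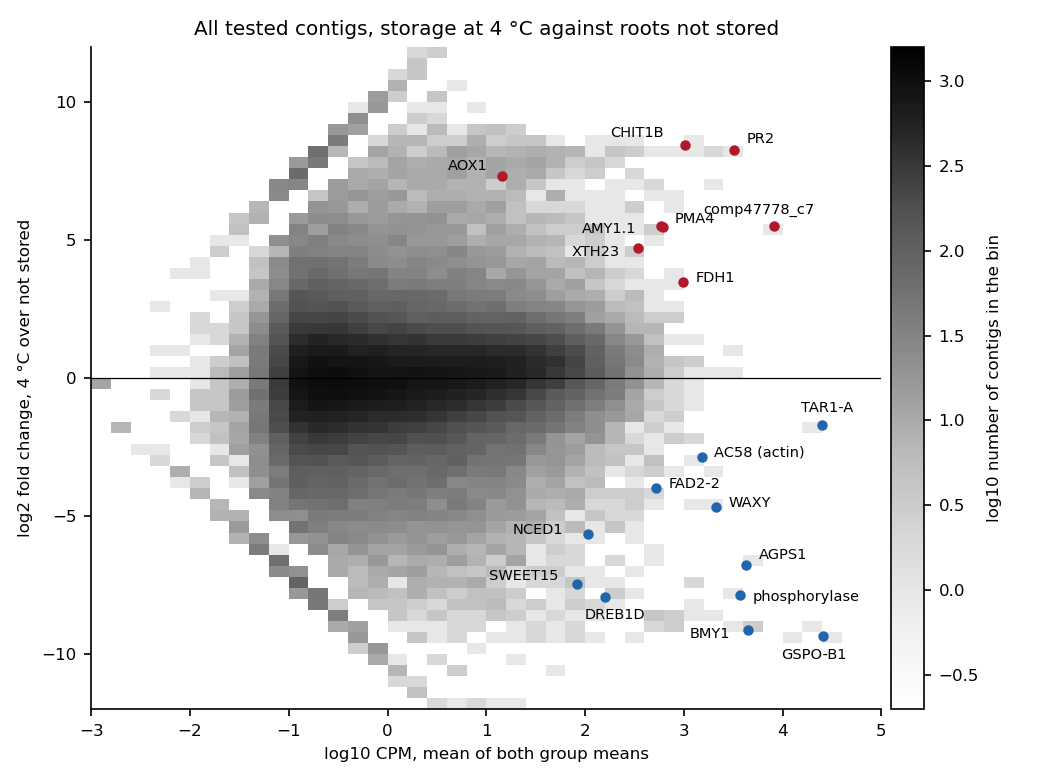
All 94802 tested contigs by their level (x axis, log10 of the mean CPM of both groups) and their log2 fold change at 4 °C over roots not stored (y axis, values beyond 12 drawn at the edge); grey shading is the log10 number of contigs per bin and coloured points are contigs described in the text. Sporamin (GSPO-B1), BMY1 and a starch phosphorylase lie at the lower right, and PR2 and CHIT1B at the upper right.

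Storage protein and starch synthesis fell, from levels that were very high in roots not stored. All 9 contigs with a sporamin symbol fell, with a median log2 fold change of -8.79. Their sum was 232, 213 and 23.6 CPM at 4 °C, against 109000, 103000 and 69600 CPM in roots not stored, and 29800 ± 4590 CPM at 14 °C. The groups were far apart, and replicate 3 at 4 °C lay well below the other libraries at 4 °C. GSPO-B1 (comp1393_c34), a sporamin B contig, had 116, 108 and 12 CPM at 4 °C, against 60100, 57400 and 36400 CPM in roots not stored. Its log2 fold change was -9.35 ± 0.91 (SE, edgeR adjusted p = 2.7e-05).

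Starch synthesis fell in 65 of 98 tested contigs, rose in 15 and did not pass in 18, with a median log2 fold change of -2.85. The summed level was 613, 604 and 542 CPM at 4 °C, against 12900, 10600 and 14400 CPM in roots not stored. Roots at 14 °C had 31700 ± 4460 CPM. An exact two-sided permutation test of such sums, 3 libraries against 3, cannot go below p = 0.1, and this sum gave that value. The same p of 0.1 holds for every list sum below unless another is given.

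AGPS1 (comp75210_c1), the small subunit of ADP-glucose pyrophosphorylase, which makes the sugar nucleotide for starch, had 93.8, 93.7 and 42.4 CPM at 4 °C, against 8360, 6980 and 10100 CPM in roots not stored. No library of either group came near the other, and the log2 fold change was -6.79 ± 0.35 (SE, edgeR adjusted p = 7.1e-08). The description of this enzyme covered 61 tested contigs, 40 of which fell and 14 rose. WAXY (comp18538_c4), the granule-bound starch synthase that makes amylose, had 178, 143 and 149 CPM at 4 °C, against 4650, 3820 and 3700 CPM in roots not stored (log2 fold change -4.69 ± 0.16 SE, edgeR adjusted p = 1.5e-09). The 1,4-alpha-glucan branching enzyme, which makes the branches of amylopectin, fell in 13 of 19 contigs and rose in 1.

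Enzymes that take starch apart did not move as one group. Beta-amylase, which releases maltose from chain ends, fell in 25 of 33 contigs and rose in 5. BMY1 (comp34415_c1) had 24, 21.4 and 2.74 CPM at 4 °C, against 9810, 8740 and 8210 CPM in roots not stored, and replicate 3 at 4 °C was again the lowest. BAM9 (comp10684_c1), whose Arabidopsis namesake is a catalytically inactive member of the family, changed far less: it had 300, 299 and 315 CPM at 4 °C, against 615, 584 and 625 CPM in roots not stored (log2 fold change -1.0 ± 0.10 SE, edgeR adjusted p = 3.8e-06).

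Alpha-amylase, which cuts inside the chains, rose in 20 of 33 contigs of its list and fell in 10, or in 6 with library totals as the only scaling. Its sum was 2300, 2740 and 2210 CPM at 4 °C, against 255, 265 and 261 CPM in roots not stored. Most of that sum came from a pair of contigs with the symbol AMY1.1. The first (comp25740_c2) had 1090, 1280 and 1080 CPM at 4 °C, against 24.5, 30.2 and 21.6 CPM in roots not stored (log2 fold change 5.50 ± 0.20 SE, edgeR adjusted p = 2e-09). The second (comp7884_c4) had 565, 744 and 560 CPM at 4 °C, against 11.3, 13.2 and 10.9 CPM in roots not stored. The libraries of both groups were widely separated for both contigs.

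The remaining starch list, phosphorylase, glucan water dikinase and glucanotransferase, fell in 46 of 90 contigs and rose in 8. Starch phosphorylase, which frees glucose 1-phosphate, made up much of it, with 29 of 49 contigs lower and 2 higher. Its contig comp38284_c1 had 41.4, 36.0 and 18.1 CPM at 4 °C, against 7850, 6630 and 7720 CPM in roots not stored (log2 fold change -7.86 ± 0.32 SE, edgeR adjusted p = 9e-09). The phosphorylase comp6103_c1 fell by 1.45 ± 0.12 (SE) on the log2 scale, with 93.8, 97.1 and 108 CPM at 4 °C, against 285, 240 and 292 CPM in roots not stored. Both fell with no overlap between groups, but by very different amounts.

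Many abundant contigs kept a small residual level at 4 °C. For the 39 contigs above 300 CPM in roots not stored and more than 50 times lower at 4 °C, a bound that itself keeps the residual small, the median level relative to roots not stored was 0.359%, 0.329% and 0.0743% in replicates 1, 2 and 3 at 4 °C. Single contigs ranged over 0.225% to 2.01% in replicate 1, 0.21% to 1.73% in replicate 2 and 0.0163% to 1.38% in replicate 3. Replicate 3 thus had the lowest median, and the shares differed widely between contigs. What set these residual levels was not tested.

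**Figure D2:**
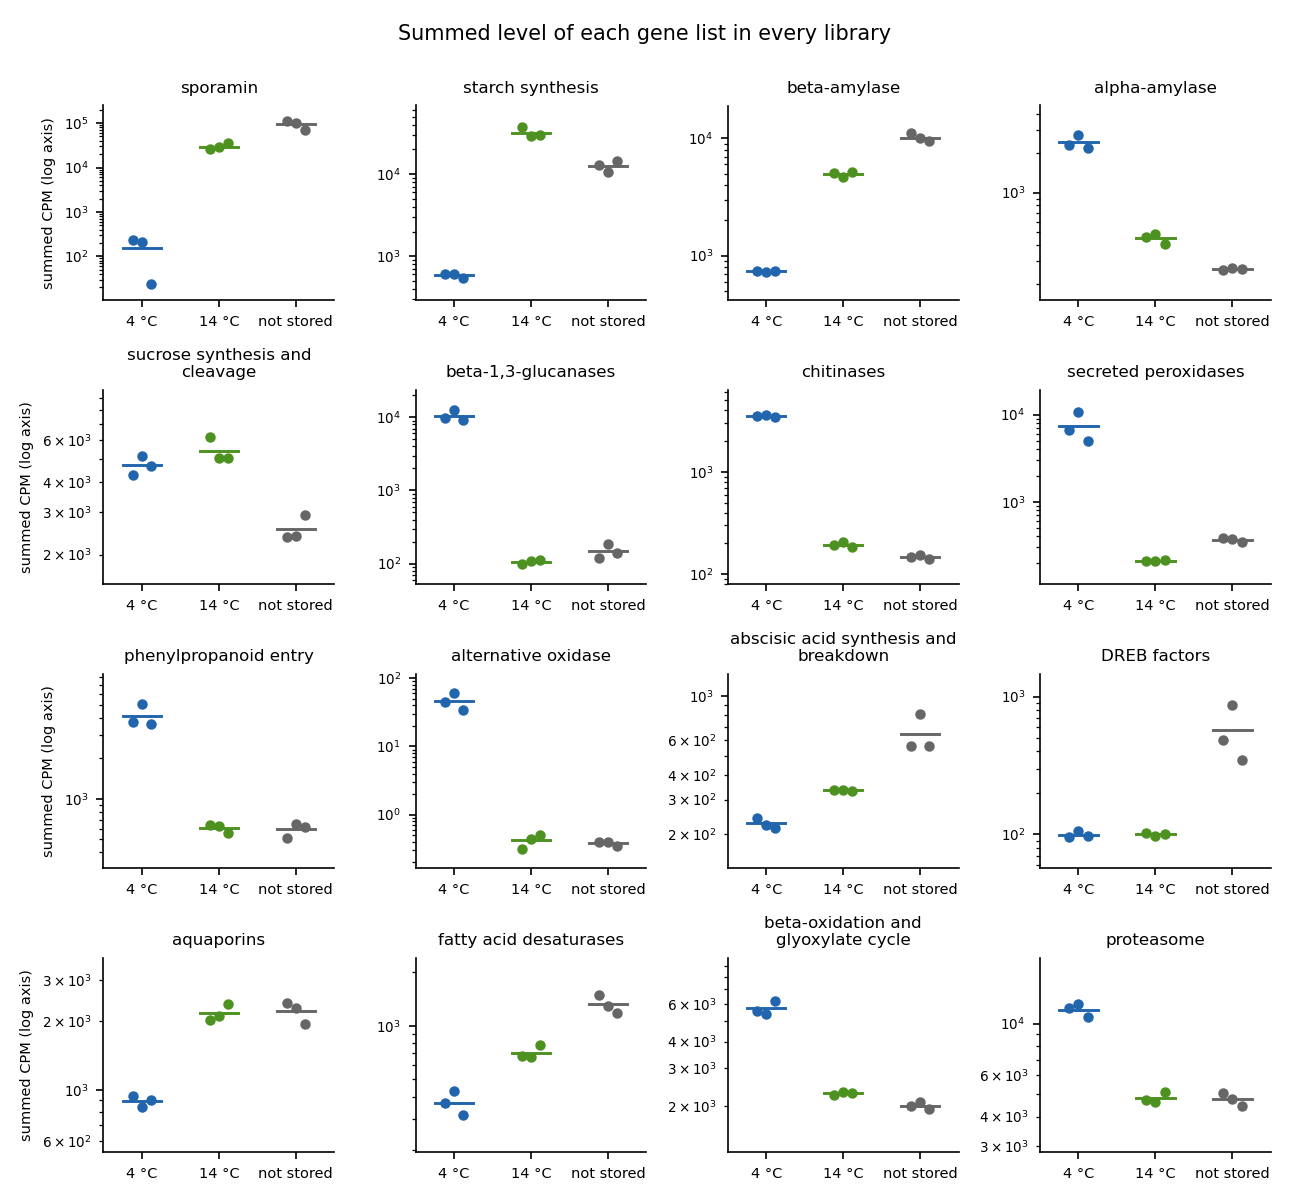
Summed CPM (log axis) of 16 gene lists in every library of the 3 groups (4 °C, 14 °C, not stored); points are libraries and lines group means. Sporamin, starch synthesis and beta-amylase sums lie lower at 4 °C than in roots not stored, and beta-1,3-glucanase, chitinase, peroxidase and alternative oxidase sums higher, with no overlap between these groups.

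Sugar metabolism changed by less, and unevenly. Sucrose synthesis and cleavage rose in 30 of 60 contigs and fell in 6, with a median log2 fold change of 0.77. The list sum was 4280, 5160 and 4690 CPM at 4 °C, against 2370, 2390 and 2910 CPM in roots not stored. Sucrose synthase, which splits sucrose reversibly, rose in 21 of 35 contigs and fell in 1. Its contig with the highest CPM of this list, comp63836_c2, was not among those that passed: it had 844, 849 and 1050 CPM at 4 °C, against 826, 875 and 1010 CPM in roots not stored (log2 fold change 0.02 ± 0.15 SE, edgeR adjusted p = 0.94).

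Acid invertases, which split sucrose into glucose and fructose, moved in opposite directions. INV1 (comp89163_c2) had 16.0, 111 and 7.07 CPM at 4 °C, against 0.176, 0.156 and 0.245 CPM in roots not stored. The rise held in all libraries, but its log2 fold change of 7.85 became 5.88 without replicate 2 at 4 °C. TIV1 (comp41186_c1), chosen after its values were seen, had 6.64, 7.57 and 7.97 CPM at 4 °C, against 112, 102 and 124 CPM in roots not stored (log2 fold change -3.93 ± 0.15 SE, edgeR adjusted p = 2.4e-09).

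Sugar transporters were split, 14 of 40 higher and 15 lower. STP13 (comp18856_c4), a symbol of proton-coupled hexose importers, had 187, 338 and 149 CPM at 4 °C, against 19.2, 23.6 and 20.7 CPM in roots not stored (log2 fold change 3.41 ± 0.27 SE, edgeR adjusted p = 1.4e-06). SWEET15 (comp69683_c1), a sucrose exporter family member, had 1.09, 0.984 and 0.698 CPM at 4 °C, against 176, 152 and 160 CPM in roots not stored (log2 fold change -7.46 ± 0.22 SE, edgeR adjusted p = 9.3e-10). The import and export symbols thus lay on opposite sides, with no overlap for either.

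Trehalose metabolism fell in 20 of 43 contigs and rose in 9, yet its sum was higher, at 1220, 1280 and 1310 CPM at 4 °C, against 617, 712 and 708 CPM in roots not stored. TPS11 (comp101598_c1), of the class of trehalose-6-phosphate synthase proteins with a phosphatase domain, had 256, 303 and 243 CPM at 4 °C, against 2.51, 5.53 and 4.92 CPM in roots not stored. It accounted for part of that higher sum, and its log2 fold change was 5.95 ± 0.29 (SE, edgeR adjusted p = 3.5e-08). Galactinol synthase, the entry to raffinose sugars that often accumulate in the cold, fell in all 3 contigs: GOLS2 (comp52887_c1) had 1.46, 0.722 and 0.939 CPM at 4 °C, against 5.72, 8.08 and 5.43 CPM in roots not stored.

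Respiratory lists lay above the background of 38.6% higher, some only a little, and that background was not matched to their level. Glycolysis rose in 83 of 181 contigs (45.9%) and fell in 30, the citrate cycle rose in 69 of 126 (54.8%) and fell in 14, and subunits of the mitochondrial respiratory complexes rose in 90 of 185 (48.6%) and fell in 29. Their sums did not overlap between groups. GAPC2 (comp95103_c1), a cytosolic glyceraldehyde 3-phosphate dehydrogenase, had 1790, 2080 and 1530 CPM at 4 °C, against 707, 613 and 463 CPM in roots not stored (log2 fold change 1.60 ± 0.18 SE, edgeR adjusted p = 1.1e-05). One ATP synthase contig went the other way: subunit g (comp15058_c1) had 138, 134 and 111 CPM at 4 °C, against 341, 280 and 166 CPM in roots not stored (log2 fold change -1.04 ± 0.24 SE, edgeR adjusted p = 0.0037).

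The alternative oxidase, which passes electrons to oxygen without pumping protons, rose in all 3 contigs. AOX1 (comp76683_c1) had 29.3, 32.4 and 24 CPM at 4 °C, against 0.212, 0.156 and 0.168 CPM in roots not stored (log2 fold change 7.31 ± 0.23 SE, edgeR adjusted p = 9.9e-10). The 3 libraries of each group lay close together, and roots at 14 °C were as low as roots not stored, at 0.149 CPM on average. Fermentation enzymes rose in 23 of 40 contigs and fell in 6, with sums of 2260, 2690 and 2050 CPM at 4 °C, against 924, 970 and 768 CPM in roots not stored. ADH1 (comp56427_c10), an alcohol dehydrogenase, had 718, 853 and 655 CPM at 4 °C, against 209, 203 and 161 CPM in roots not stored (log2 fold change 1.96 ± 0.14 SE, edgeR adjusted p = 3.3e-07).

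Fatty acid breakdown and the glyoxylate cycle, which turns acetyl units into sugar precursors, rose in 60 of 111 contigs and fell in 12. The sum was 5560, 5400 and 6180 CPM at 4 °C, against 2000, 2100 and 1940 CPM in roots not stored. Malate synthase, an enzyme of the glyoxylate cycle alone, rose in 10 of 13 contigs and fell in 0. Its contig comp34259_c3 had 865, 720 and 1080 CPM at 4 °C, against 168, 242 and 218 CPM in roots not stored (log2 fold change 2.09 ± 0.18 SE, edgeR adjusted p = 1.1e-06). FDH1 (comp55177_c3), a mitochondrial formate dehydrogenase, had 1720, 2040 and 1620 CPM at 4 °C, against 177, 172 and 132 CPM in roots not stored (log2 fold change 3.48 ± 0.16 SE, edgeR adjusted p = 9.2e-09).

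Phenylpropanoid enzymes, which turn phenylalanine into lignin, chlorogenic acids and flavonoids, rose. The entry steps rose in 40 of 48 contigs (83.3%, against 38.6% of contigs with a description) and fell in 3, with a median log2 fold change of 2.36. Their sum was 3720, 5060 and 3580 CPM at 4 °C, against 513, 656 and 617 CPM in roots not stored. Phenylalanine ammonia-lyase, the first enzyme, rose in 12 of 13 contigs and fell in 0, and its contig comp109748_c5 had 637, 1000 and 520 CPM at 4 °C, against 3.13, 3.61 and 6.09 CPM in roots not stored. That was a log2 fold change of 7.39 ± 0.36 (SE, edgeR adjusted p = 5.9e-08), with replicate 2 the highest at 4 °C.

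Further along, trans-cinnamate 4-monooxygenase rose in 7 of 8 contigs and 4-coumarate-CoA ligase in 21 of 27. The symbol 4CLL10 (comp80741_c1) is that of a protein like this ligase, and whether it acts on 4-coumarate was not tested. This contig of the entry list had 957, 1210 and 1090 CPM at 4 °C, against 172, 237 and 225 CPM in roots not stored (log2 fold change 2.36 ± 0.16 SE, edgeR adjusted p = 1.8e-07). In the lignin and chlorogenate branch 30 of 61 contigs rose and 19 fell. Contigs described as ferulate-5-hydroxylase, an enzyme that leads to syringyl lignin, rose in 12 of 15, and that description was not checked further. Cinnamoyl-CoA reductase, the first enzyme committed to lignin monomers, rose in 12 and fell in 15 of 34. CYP71A1 (comp86160_c1), described as a ferulate-5-hydroxylase, had 453, 1070 and 340 CPM at 4 °C, against 2.60, 4.03 and 4.47 CPM in roots not stored. Its log2 fold change of 7.39 was 6.73 without replicate 2 at 4 °C. The contig of this list with the highest CPM, CCOAOMT5 (comp82736_c1), a caffeoyl-CoA methyltransferase, had 378, 441 and 282 CPM at 4 °C, against 381, 341 and 300 CPM in roots not stored, with overlap (edgeR adjusted p = 0.66). Flavonoid and anthocyanin synthesis rose in 22 of 38 contigs and fell in 2.

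Secreted peroxidases, which couple phenolics in the cell wall, rose in 49 of 72 contigs and fell in 15. The median log2 fold change was 5.84, and the sum was 6670, 10600 and 5000 CPM at 4 °C, against 384, 373 and 347 CPM in roots not stored. The peroxidase comp39288_c3 had 2700, 4200 and 1940 CPM at 4 °C, against 4.93, 10.1 and 13.9 CPM in roots not stored (log2 fold change 8.25 ± 0.48 SE, edgeR adjusted p = 4.8e-07). A further peroxidase, comp92122_c1, was without a count in roots not stored, against which its 5.03, 9.60 and 4.81 CPM at 4 °C were at least 176-fold higher against the floor of 3 counts per library. Replicate 2 was the highest library at 4 °C in each of these. Polyphenol oxidase and laccase, also tied to browning, had 6 tested contigs, of which 2 rose (33.3%, near the background of 38.6%) and 0 fell. Contigs with a laccase symbol but described as nitrite reductase, such as LAC14, are not in that count and are given with the KEGG terms.

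Enzymes that attack fungal walls were among the largest rises. Chitinases rose in 30 of 41 contigs and fell in 2, with a median log2 fold change of 4.47 and sums of 3490, 3600 and 3400 CPM at 4 °C, against 148, 153 and 141 CPM in roots not stored. CHIT1B (comp98986_c1) had 2040, 2090 and 1950 CPM at 4 °C, against 2.88, 5.95 and 8.85 CPM in roots not stored (log2 fold change 8.43 ± 0.40 SE, edgeR adjusted p = 6.2e-08). CHI2 (comp79536_c1) had 1030, 979 and 1050 CPM at 4 °C, against 9.29, 11.9 and 13.1 CPM in roots not stored. The 3 libraries at 4 °C agreed closely for both, unlike for the peroxidases.

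Beta-1,3-glucanases, which cut another fungal wall polymer and plant callose, rose in 10 of 17 contigs of the list and fell in 6. The GO term for the same activity, glucan endo-1,3-beta-D-glucosidase, holds more contigs and was split, with 43 of 105 higher and 39 lower. The list sum was 9880, 12500 and 9130 CPM at 4 °C, against 120, 183 and 139 CPM in roots not stored. PR2 (comp191_c1) had 5760, 7750 and 5620 CPM at 4 °C, against 11.7, 20.4 and 29.5 CPM in roots not stored (log2 fold change 8.28 ± 0.37 SE, edgeR adjusted p = 3.2e-08). GGL4 (comp44084_c1) had 3570, 4110 and 3080 CPM at 4 °C, against 6.64, 13.0 and 18.0 CPM in roots not stored. These 2 contigs carried most of the sum. Immune receptors and their signalling did not share that direction, with 18 of 59 contigs higher and 20 lower. The broad GO term defense response leaned to falls, with 200 of 1119 contigs higher (17.9%) and 443 lower (39.6%). Contigs with any GO term had 34.9% higher and 26.4% lower. Innate immune response had 10.5% higher and 37.6% lower, but defense response to fungus, incompatible interaction, had 58.8% higher and 14.7% lower. Lists of fungal, bacterial and animal marker names matched no contig of the table and were not analysed here.

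**Figure D3:**
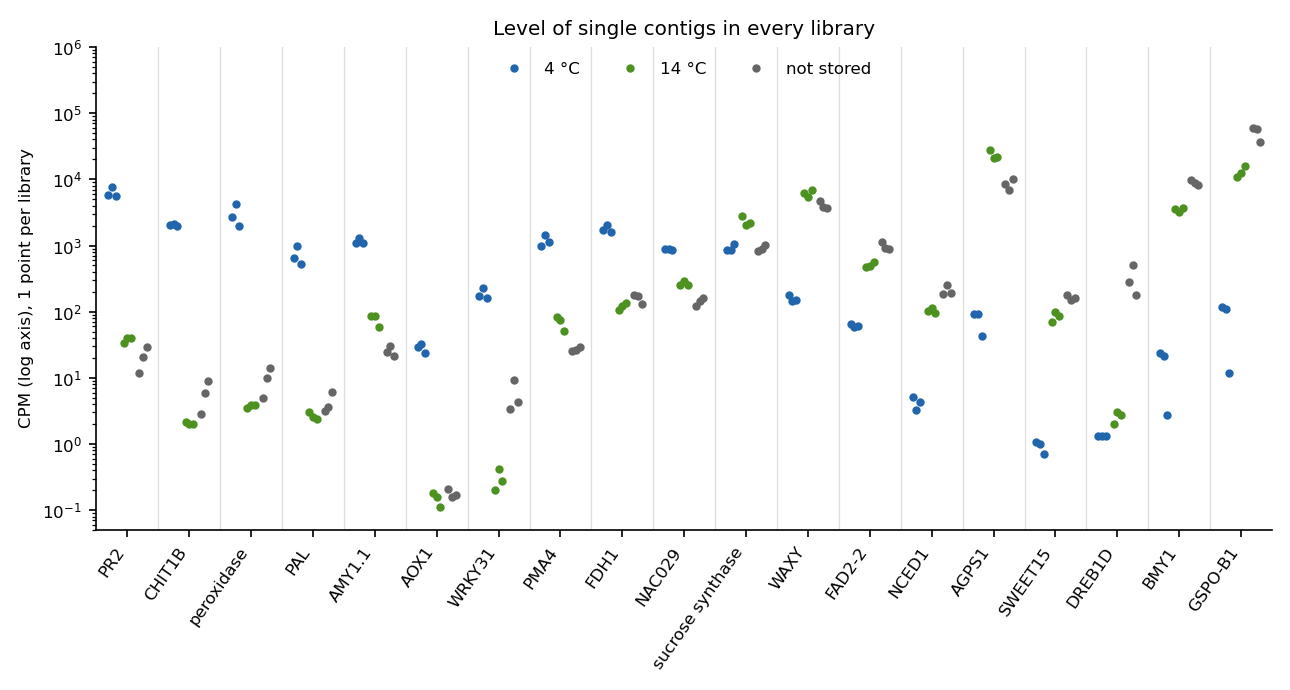
CPM (log axis) of 19 contigs in each library of the 3 groups (4 °C, 14 °C, not stored), 1 point per library. PR2, CHIT1B, a peroxidase, phenylalanine ammonia-lyase (PAL), AMY1.1 and AOX1 lie higher at 4 °C than in roots not stored, a sucrose synthase overlaps, and WAXY, NCED1, SWEET15, DREB1D, BMY1 and GSPO-B1 lie lower.

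Terpenoid backbone enzymes, which supply the precursors of sterols and defence terpenes, rose in 44 of 94 contigs and fell in 17. FPS1 (comp105843_c1), a farnesyl diphosphate synthase, had 275, 410 and 194 CPM at 4 °C, against 10.6, 10.1 and 10.5 CPM in roots not stored (log2 fold change 4.81 ± 0.25 SE, edgeR adjusted p = 3.3e-08). HMGR (comp67341_c1), the regulated enzyme of the mevalonate route, had 195, 355 and 164 CPM at 4 °C, against 34.9, 29.5 and 29.4 CPM in roots not stored, and 2.55 CPM on average at 14 °C. Mono- and sesquiterpene synthases rose in 8 of 14 contigs and fell in 5. TPS31 (comp75074_c1), described as a myrcene or ocimene synthase, had 71.1, 76.1 and 52.0 CPM at 4 °C, against 0.388, 0.216 and 0.529 CPM in roots not stored (log2 fold change 7.46 ± 0.29 SE, edgeR adjusted p = 3.5e-09).

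Hormone pathways differed from each other. Abscisic acid synthesis and breakdown fell in 33 of 56 contigs and rose in 11, with sums of 242, 224 and 216 CPM at 4 °C, against 560, 811 and 563 CPM in roots not stored. The enzyme 9-cis-epoxycarotenoid dioxygenase, which commits carotenoids to the hormone, fell in 13 of 15 contigs and rose in 1. NCED1 (comp56932_c1) had 5.07, 3.26 and 4.31 CPM at 4 °C, against 185, 256 and 190 CPM in roots not stored (log2 fold change -5.64 ± 0.21 SE, edgeR adjusted p = 2e-09). NCED3 (comp10290_c1) had no count at 4 °C, against 2.94, 3.0 and 3.54 CPM in roots not stored, so it was at least 80-fold lower. The breakdown enzyme abscisic acid 8'-hydroxylase fell too, in 5 of 5 contigs by its description. CYP707A1 (comp35716_c2) had 0.170, 0.199 and 0.127 CPM at 4 °C, against 16.6, 36.7 and 18.1 CPM in roots not stored. Synthesis and breakdown thus fell together. Carotenoid synthesis, which supplies the substrate, fell in 21 of 30 contigs and rose in 1, though ZDS (comp69662_c1), a desaturase, did not pass (30.3, 31.6 and 33.9 CPM at 4 °C, against 31.2, 29.9 and 31.8 CPM in roots not stored). Receptors, PP2C phosphatases and SnRK2 kinases of the hormone rose in 13 and fell in 18 of 58 contigs.

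Ethylene genes rose in 37 of 77 contigs (48.1%, against a background of 38.6%) and fell in 18 (23.4%, near the background of 23.1%). ACO1 (comp87910_c1), which makes ethylene in the last step and was chosen after its values were seen, had 253, 219 and 200 CPM at 4 °C, against 4.11, 6.37 and 4.66 CPM in roots not stored (log2 fold change 5.47 ± 0.22 SE, edgeR adjusted p = 3.5e-09). The receptor ETR1 (comp93169_c2) had 298, 345 and 296 CPM at 4 °C, against 80.3, 69.4 and 76.9 CPM in roots not stored (log2 fold change 2.05 ± 0.12 SE, edgeR adjusted p = 5e-08). Both the synthesis enzyme and the receptor were higher in every library at 4 °C.

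Jasmonate and oxylipin synthesis was split, with 12 of 35 contigs higher and 15 lower, and its sums overlapped between groups (exact p = 0.5). LOX1.5 (comp90607_c1), a lipoxygenase, had 575, 674 and 647 CPM at 4 °C, against 490, 657 and 648 CPM in roots not stored, which did not pass, while roots at 14 °C averaged 154 CPM. Of 25 contigs of TIFY (JAZ) proteins, which repress jasmonate responses, 10 rose and 7 fell, with overlapping sums (exact p = 1.0). Salicylate had 7 tested contigs, of which 5 rose and 2 fell. SABP2 (comp104774_c3), a symbol for an esterase that frees salicylic acid from its methyl ester and here described as a related esterase, had 58.8, 73.9 and 46.3 CPM at 4 °C, against 1.19, 1.04 and 1.16 CPM in roots not stored.

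Growth hormones went different ways. Auxin response fell in 57 of 126 contigs and rose in 26, and cytokinin genes fell in 62 of 144 and rose in 42. The cytokinin receptor AHK4 (comp13874_c1) had 15.0, 11.9 and 14.3 CPM at 4 °C, against 108, 113 and 142 CPM in roots not stored (log2 fold change -3.14 ± 0.15 SE, edgeR adjusted p = 9.4e-09). Gibberellin genes rose in 15 of 31 contigs and fell in 9. The gibberellin receptor GID1B (comp36483_c1) had 401, 370 and 370 CPM at 4 °C, against 80, 83.7 and 86.4 CPM in roots not stored (log2 fold change 2.19 ± 0.10 SE, edgeR adjusted p = 8.3e-09). GA2OX1 (comp89137_c1), an enzyme that inactivates gibberellins, had 40.4, 39.7 and 33.9 CPM at 4 °C, against 0.129, 0.108 and 0.258 CPM in roots not stored. Receptor and inactivating enzyme were both higher. Brassinosteroid genes rose in 7 and fell in 13 of 34 contigs.

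Transcription factors of the DREB (CBF) group, known from Arabidopsis as early regulators of cold genes, fell. Of 24 contigs 18 fell and 4 rose, with a median log2 fold change of -3.47. Their sum was 95.1, 105 and 97.7 CPM at 4 °C, against 485, 874 and 345 CPM in roots not stored, and 101 ± 2.5 CPM at 14 °C. DREB1D (comp55413_c1) had 1.31, 1.31 and 1.33 CPM at 4 °C, against 277, 503 and 176 CPM in roots not stored (log2 fold change -7.92 ± 0.43 SE, edgeR adjusted p = 1.9e-07). Its mean at 14 °C was 2.62 CPM, and 4 °C against 14 °C gave a log2 fold change of -0.99 (edgeR adjusted p = 0.041). DREB1A (comp66303_c1) had no count at 4 °C, against 3.60, 17.7 and 2.37 CPM in roots not stored, so it was at least 200-fold lower, or at least 75-fold without replicate 2 of the roots not stored. DREB1F (comp42366_c2) had no count at 4 °C, against 3.22, 7.68 and 2.06 CPM in roots not stored, at least 109-fold lower, or at least 67-fold without that replicate. Replicate 2 was the highest of the roots not stored in all 3. DREB2A (comp97378_c1), of a group tied to heat and drought, rose slightly, with 43.9, 48.4 and 48.5 CPM at 4 °C, against 30.4, 30.2 and 34.5 CPM in roots not stored (log2 fold change 0.57 ± 0.11 SE, edgeR adjusted p = 0.0013).

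Other ERF factors fell in 76 of 137 contigs and rose in 44, and WRKY factors, many of which act in defence, fell in 54 and rose in 49 of 149. RAP2-3 (comp28852_c1), a group VII ERF of the kind that senses low oxygen, had 240, 221 and 233 CPM at 4 °C, against 612, 522 and 430 CPM in roots not stored (log2 fold change -1.17 ± 0.13 SE, edgeR adjusted p = 1.1e-05). PTI5 (comp78107_c1), named for a tomato factor of pathogen responses, was without a count in roots not stored, against which its 2.64, 5.81 and 2.07 CPM at 4 °C were at least 95-fold higher. WRKY31 (comp81054_c6) had 175, 229 and 162 CPM at 4 °C, against 3.34, 9.30 and 4.35 CPM in roots not stored (log2 fold change 5.06 ± 0.40 SE, edgeR adjusted p = 3.1e-06). WRKY4 (comp88252_c1) had 101, 95 and 103 CPM at 4 °C, against 104, 109 and 132 CPM in roots not stored (edgeR adjusted p = 0.14). Members of one family thus lay on both sides and in between.

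NAC factors rose in 58 of 105 contigs and fell in 29. NAC029 (comp96236_c2), a symbol used for a promoter of leaf senescence, had 890, 881 and 859 CPM at 4 °C, against 120, 143 and 159 CPM in roots not stored (log2 fold change 2.64 ± 0.13 SE, edgeR adjusted p = 1.2e-08). The bHLH factors fell in 94 of 184 contigs and rose in 49, and MYB factors fell in 70 and rose in 53 of 187. Heat stress factors were even in count, with 26 of 64 (40.6%) in each direction, against a background of 38.6% higher and 23.1% lower. HSFB3 (comp90262_c6) had 140, 140 and 115 CPM at 4 °C, against 12.7, 12.7 and 9.85 CPM in roots not stored (log2 fold change 3.48 ± 0.16 SE, edgeR adjusted p = 6.7e-09). Of 212 contigs of the clock and light responses 98 fell and 51 rose. The clock repressor PRR73 (comp1193_c1) had 173, 186 and 181 CPM at 4 °C, against 296, 321 and 360 CPM in roots not stored (log2 fold change -0.85 ± 0.12 SE, edgeR adjusted p = 5.9e-05). No source used here gives the hour of sampling.

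**Figure D4:**
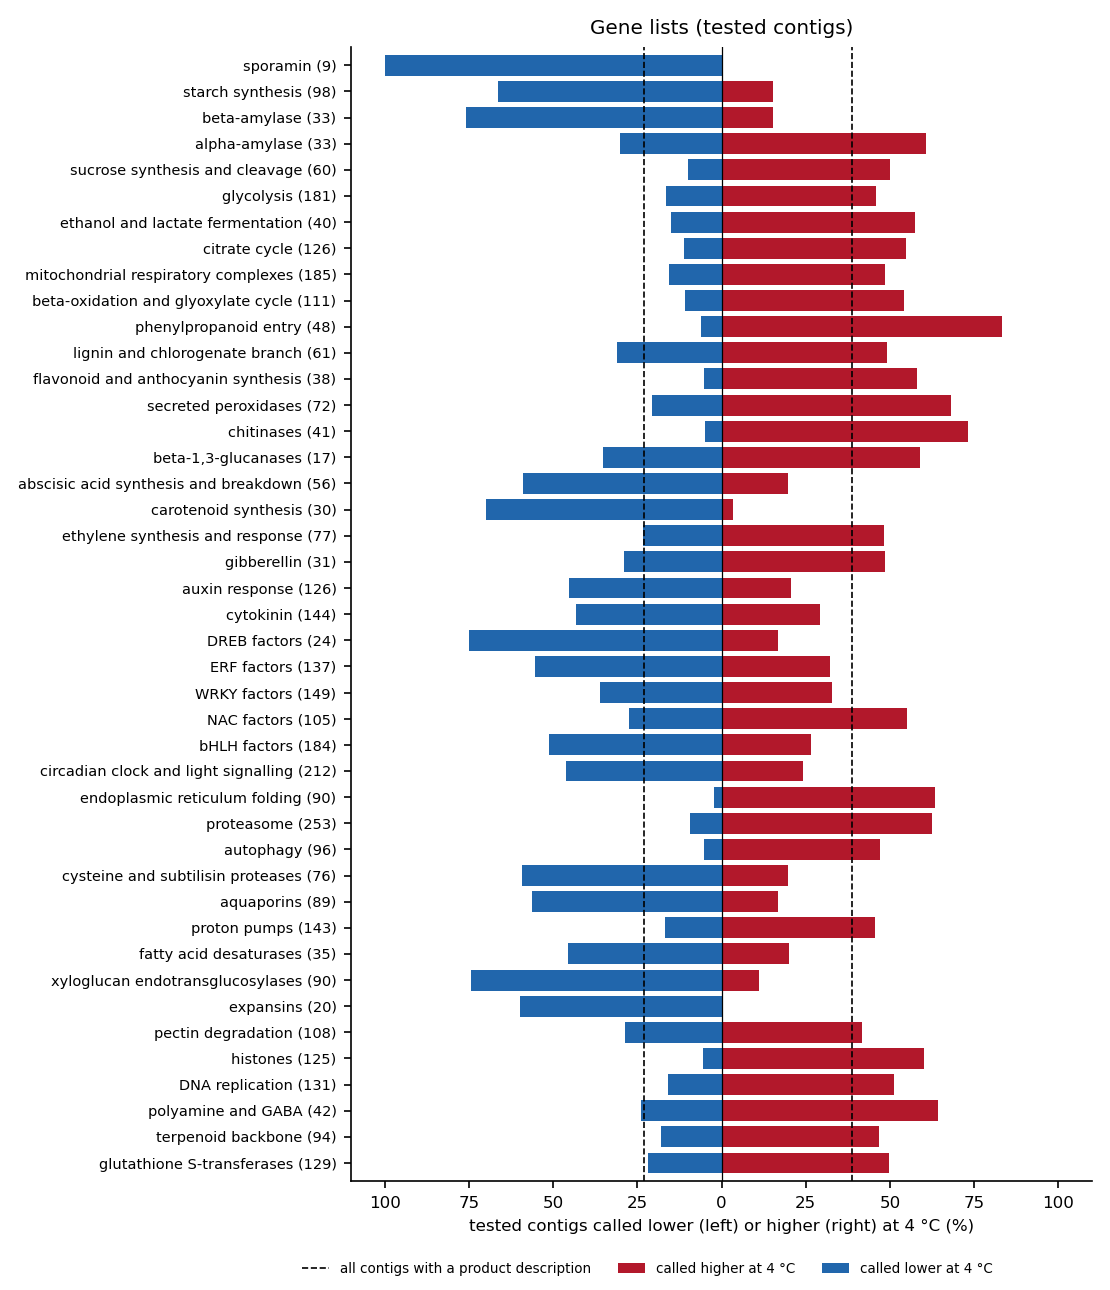
Share of the tested contigs of 43 gene lists called higher (right) or lower (left) at 4 °C against roots not stored, with the number tested in brackets; dashed lines mark 38.6% and 23.1%, the shares for all contigs with a product description. Phenylpropanoid entry (83.3% higher) and chitinases (73.2% higher) extend farthest to the right among lists of over 40 contigs, and starch synthesis (66.3% lower) and xyloglucan endotransglucosylases (74.4% lower) far to the left.

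Signalling proteins showed both directions. Calmodulins and calcium-dependent kinases rose in 121 (36.0%) and fell in 107 (31.8%) of 336 contigs, against a background of 38.6% and 23.1%. The kinase CIPK7 (comp89972_c1), a partner of calcineurin B-like calcium sensors, had 68.0, 67.4 and 54.4 CPM at 4 °C, against 800, 703 and 715 CPM in roots not stored (log2 fold change -3.55 ± 0.14 SE, edgeR adjusted p = 2.9e-09). MAP kinase cascade members rose in 42 and fell in 42 of 117 contigs. MPK3 (comp40832_c1), a stress-activated MAP kinase, had 17.9, 24.3 and 15.0 CPM at 4 °C, against 152, 272 and 140 CPM in roots not stored (log2 fold change -3.30 ± 0.30 SE, edgeR adjusted p = 5.2e-06). At 14 °C MPK3 averaged 8.05 CPM, below its level at 4 °C. MPK12 (comp91526_c1) rose, with 148, 148 and 147 CPM at 4 °C, against 72.4, 94.8 and 103 CPM in roots not stored.

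Several lists of protein folding and breakdown rose in more contigs than the background of 38.6%, and others were split. Chaperones of the endoplasmic reticulum rose in 57 of 90 contigs and fell in 2, HSP70 and HSP90 rose in 69 of 118 and fell in 12, and the proteasome rose in 158 of 253 and fell in 24. The proteasome sum was 11600, 12100 and 10700 CPM at 4 °C, against 5040, 4770 and 4440 CPM in roots not stored. RPT1A (comp30007_c1), an ATPase of its regulatory particle, had 732, 786 and 704 CPM at 4 °C, against 329, 322 and 299 CPM in roots not stored (log2 fold change 1.22 ± 0.10 SE, edgeR adjusted p = 1.2e-06). Both groups of libraries were apart for this contig. Of 39 contigs of small heat shock proteins 17 rose and 13 fell, with a lower sum of 244, 259 and 205 CPM at 4 °C, against 319, 339 and 290 CPM in roots not stored. Of 400 ubiquitin ligase contigs 139 rose (34.8%) and 118 fell (29.5%), not far from the background, and their sums overlapped (exact p = 0.4). HSC-2 (comp71705_c1), an HSP70 contig, fell: it had 653, 735 and 682 CPM at 4 °C, against 1570, 1470 and 1490 CPM in roots not stored (log2 fold change -1.13 ± 0.11 SE, edgeR adjusted p = 3.1e-06).

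Autophagy genes rose in 45 of 96 contigs and fell in 5, or in 3 without replicate 1 at 4 °C or with library totals as the only scaling. ATG8C (comp85245_c1), which coats autophagosomes, had 147, 135 and 131 CPM at 4 °C, against 81.8, 72.3 and 58.2 CPM in roots not stored. The pooled list of subtilisin and cysteine proteases fell in 45 of 76 contigs and rose in 15, and all 45 falls were among its 68 contigs described as subtilisin, of which 9 rose. Cysteine proteases by GO term went the other way, with 55 of 90 contigs of cysteine-type endopeptidase activity higher and 17 lower, while serine-type endopeptidase activity had 57 of 192 higher and 73 lower. The symbol At4g32940 (comp27015_c1) marks a legumain, a vacuolar processing protease, with 1150, 914 and 1360 CPM at 4 °C, against 22.5, 33.3 and 29.4 CPM in roots not stored (log2 fold change 5.33 ± 0.24 SE, edgeR adjusted p = 9.6e-09). This rise outweighed the falls in the list sum, which was 3220, 2920 and 3300 CPM at 4 °C, against 2240, 2170 and 2230 CPM in roots not stored. Of 735 contigs of cytosolic ribosomal proteins 208 rose, 100 fell and 427 did not pass, and the sums overlapped (exact p = 0.5).

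At membranes, fatty acid desaturases, which keep lipids fluid in the cold, fell in 16 of 35 contigs and rose in 7. Omega-6 desaturase, which makes linoleate, fell in 9 of 11 contigs and rose in 0, whereas omega-3 desaturase fell in 2 and rose in 1 of 10. FAD2-2 (comp14372_c1) had 65.2, 57.8 and 59.7 CPM at 4 °C, against 1130, 931 and 871 CPM in roots not stored (log2 fold change -4.0 ± 0.14 SE, edgeR adjusted p = 1.7e-09). Aquaporins, the water channels, fell in 50 of 89 contigs and rose in 15, with tonoplast intrinsic proteins lower in 22 of 27 and plasma membrane intrinsic proteins in 21 of 38. PIP2-7 (comp25207_c1) had 92.9, 80.3 and 86.6 CPM at 4 °C, against 363, 345 and 350 CPM in roots not stored (log2 fold change -2.03 ± 0.11 SE, edgeR adjusted p = 2.9e-08).

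Proton pumps rose in 65 of 143 contigs and fell in 24. PMA4 (comp108361_c1), a plasma membrane ATPase, had 986, 1460 and 1120 CPM at 4 °C, against 25.3, 26.3 and 29.6 CPM in roots not stored (log2 fold change 5.46 ± 0.22 SE, edgeR adjusted p = 4.4e-09). Phospholipases rose in 44 of 96 contigs and fell in 21. The phospholipase C comp102846_c1, which releases lipid signals, had 264, 294 and 275 CPM at 4 °C, against 14.5, 13.1 and 16.2 CPM in roots not stored (log2 fold change 4.25 ± 0.13 SE, edgeR adjusted p = 9.4e-10). ABC transporters rose in 95 (36.1%) and fell in 69 (26.2%) of 263 contigs, near the background of 38.6% and 23.1%. Of these, ABCC3 (comp78708_c3) was without a count in roots not stored, against which its 2.60, 2.10 and 2.31 CPM at 4 °C were at least 63-fold higher.

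Cell wall enzymes differed by kind. Xyloglucan endotransglucosylases, which cut and rejoin xyloglucan as walls extend, fell in 67 of 90 contigs and rose in 10, with a median log2 fold change of -3.31. Their sum did not follow, at 1420, 1470 and 1450 CPM at 4 °C, against 1350, 2520 and 990 CPM in roots not stored (exact p = 1.0). XTH23 (comp81887_c1), a member with a high level, rose, with 659, 592 and 733 CPM at 4 °C, against 22.5, 27.1 and 26.5 CPM in roots not stored (log2 fold change 4.71 ± 0.16 SE, edgeR adjusted p = 1.6e-09). XTH16 (comp8541_c3), chosen after its values were seen, had 6.54, 7.91 and 6.37 CPM at 4 °C, against 117, 264 and 82.3 CPM in roots not stored, a log2 fold change of -4.47, or -3.87 without replicate 2 of the roots not stored.

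Expansins, which loosen walls, fell in 12 of 20 contigs and rose in 0. EXPA4 (comp14592_c1) had 4.6, 5.33 and 3.92 CPM at 4 °C, against 49.3, 38.3 and 39.1 CPM in roots not stored (log2 fold change -3.19 ± 0.15 SE, edgeR adjusted p = 1.2e-08). Pectin degradation rose in 45 of 108 contigs (41.7%, near the background of 38.6%) and fell in 31 (28.7%). The pectinesterase PME17 (comp80712_c2), which removes methyl groups from pectin, had 64.9, 127 and 69.4 CPM at 4 °C, against 0.106, 0.348 and 0.194 CPM in roots not stored (log2 fold change 8.65 ± 0.43 SE, edgeR adjusted p = 7e-08). CSLA9 (comp87547_c1), a mannan synthase symbol among the cellulose and related synthases, had 143, 266 and 123 CPM at 4 °C, against 0.318, 0.756 and 0.916 CPM in roots not stored (log2 fold change 8.07 ± 0.45 SE, edgeR adjusted p = 2.6e-07). That list itself was near even in count, with 41 of 132 contigs higher (31.1%) and 48 lower (36.4%).

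Stress metabolites and nitrogen enzymes differed by list. Nitrogen assimilation was split, with 12 of 33 contigs higher and 11 lower. Polyamine and GABA genes rose in 27 of 42 contigs and fell in 10, and arginine decarboxylase, which starts one route to putrescine, rose in 5 of 5. Its contig comp26226_c6 had 971, 1410 and 950 CPM at 4 °C, against 118, 173 and 134 CPM in roots not stored (log2 fold change 2.97 ± 0.21 SE, edgeR adjusted p = 3.9e-07). Amino acid catabolism rose in 36 of 60 contigs and fell in 9. Glutathione S-transferases rose in 64 of 129 contigs and fell in 28. The list of cold-regulated, dehydrin and LEA proteins had 15 tested contigs, 8 higher and 3 lower (5 higher without replicate 3 of the roots not stored), and its sums overlapped (exact p = 0.6). ERD15 (comp59323_c1) of that list had 371, 315 and 329 CPM at 4 °C, against 368, 335 and 263 CPM in roots not stored.

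Photosynthesis transcripts, which were present in roots not stored, fell alongside the green tissue markers of which they are part. RBCS (comp47344_c1), the small Rubisco subunit, had 0.0852, 0.149 and 0.0508 CPM at 4 °C, against 57.3, 47.4 and 38.3 CPM in roots not stored (log2 fold change -8.94 ± 0.30 SE, edgeR adjusted p = 1.4e-09). The light-harvesting contig CAP10A (comp54397_c1) had 0.312, 0.299 and 0.267 CPM at 4 °C, against 95.3, 78.8 and 54.7 CPM in roots not stored. PSBO (comp7918_c1), of the oxygen-evolving complex, had more, with 4.8, 5.55 and 3.91 CPM at 4 °C, against 222, 181 and 151 CPM in roots not stored. All fell with wide gaps between groups, and their means at 14 °C of 0.627, 15.0 and 39.2 CPM lay between both.

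The KEGG and GO terms of the table were ranked by the share of their tested contigs that passed in each direction, among terms with at least 30 tested contigs and at least 10 symbols. No enrichment test was made, and contigs of one gene count separately. Contigs with a KEGG pathway rose in 40.5% and fell in 21.7% of 12910 cases. The highest shares of rises were in tropane, piperidine and pyridine alkaloid biosynthesis (55 of 80, 68.8%), phenylalanine metabolism (118 of 177, 66.7%), the PPAR signaling pathway (157 of 245, 64.1%), the proteasome (149 of 234, 63.7%) and nitrogen metabolism (73 of 116, 62.9%). They were followed by flavonoid biosynthesis (48 of 79, 60.8%), the citrate cycle (106 of 188, 56.4%) and phenylpropanoid biosynthesis (195 of 347, 56.2%). Lysine degradation, inositol phosphate metabolism and systemic lupus erythematosus each had 55.9%.

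Several of these names come from animals or other pathways, and the contigs under them show what rose. The tropane term was led by tropine dehydrogenase, a short-chain dehydrogenase description, with 36 of 47 contigs higher, and its contig comp68984_c4 had 1080, 1280 and 780 CPM at 4 °C, against 1.48, 3.07 and 5.61 CPM in roots not stored (log2 fold change 8.27 ± 0.51 SE, edgeR adjusted p = 8.3e-07). The PPAR term, named for an animal lipid receptor, was led by ubiquitin C, with 116 of 146 contigs higher and 5 lower, and acyl-CoA oxidase, with 20 of 35 higher. Nitrogen metabolism included 12 higher contigs of phenylalanine ammonia-lyase and 15 of 17 described as nitrite reductase (NO-forming). LAC14 (comp93830_c2) carries the nitrite reductase description but the symbol of a laccase, so both name different proteins. It had 77.1, 294 and 49.4 CPM at 4 °C, against 0.376, 0.468 and 0.529 CPM in roots not stored, a log2 fold change of 8.26, or 7.09 without replicate 2 at 4 °C. Most contigs of the lupus term were histones, with H3 higher in 21 of 26 contigs and H2A in 21 of 33.

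Among falls, photosynthesis antenna proteins came first, with 35 of 52 contigs lower and 0 higher (67.3%), then carotenoid biosynthesis (57 of 93, 61.3%) and photosynthesis (54 of 98, 55.1%). The next were aldosterone-regulated sodium reabsorption (45 of 83, 54.2%), folate biosynthesis (14 of 31, 45.2%), and porphyrin and chlorophyll metabolism (49 of 110, 44.5%). The folate count was 9 without replicate 3 at 4 °C. The remaining ranked terms lay at 39.3% to 39.4%: dorso-ventral axis formation, the MAPK signaling pathway of the fly, non-small cell lung cancer, and stilbenoid, diarylheptanoid and gingerol biosynthesis. The first 3 of these and the aldosterone term share the same 77 contigs of extracellular signal-regulated kinase 1/2, the description of plant MAP kinases, of which 40 fell and 15 rose. The stilbenoid term was not one-sided, since 110 of its 247 contigs rose.

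Contigs with a GO term rose in 34.9% and fell in 26.4% of 34461 cases. The highest shares of rises were in clathrin coated vesicle membrane (32 of 38, 84.2%, with 0 lower), threonine-type endopeptidase activity, which is the proteasome core (46 of 57, 80.7%), the proteasome complex (62 of 84, 73.8%), the COPII vesicle coat (22 of 30, 73.3%) and mitochondrial respiratory chain complex I (37 of 51, 72.5%). Clathrin adaptor complex (34 of 49, 69.4%), hydrogen peroxide catabolic process (83 of 120, 69.2%), protein targeting to vacuole (26 of 38, 68.4%), endocytosis (53 of 81, 65.4%), and aromatic amino acid family biosynthesis and chitinase activity (65.3% each) completed the ranks. The vesicle terms had no counterpart among the gene lists above. The clathrin adaptor and endocytosis terms were led by adaptor subunits that link clathrin to cargo: AP-1 beta rose in 8 of the 9 contigs there, with a median log2 fold change of 1.3, and AP-2 alpha in 7 of 8 with a median of 1.5. The aromatic amino acid term, the source of phenylalanine, included 3-phosphoshikimate 1-carboxyvinyltransferase, higher in 12 of 14 contigs, and 3-deoxy-7-phosphoheptulonate synthase, higher in 9 of 15.

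The GO terms with the highest shares of falls were xyloglucan:xyloglucosyl transferase activity (61 of 82, 74.4%), cellular glucan metabolic process (59 of 80, 73.8%), amyloplast (86 of 118, 72.9%) and hydrolysis of O-glycosyl compounds (69 of 100, 69.0%). Starch biosynthetic process (66 of 96, 68.8%), light harvesting (36 of 53, 67.9%), glycogen biosynthetic process (44 of 65, 67.7%), glucose-1-phosphate adenylyltransferase activity (37 of 55, 67.3%), photosystem I (39 of 58, 67.2%) and chlorophyll biosynthetic process (54 of 83, 65.1%) followed. The terms reduce to 3 sets of contigs: xyloglucan endotransglucosylases, starch enzymes, and light-harvesting and chlorophyll proteins. In the chlorophyll term, uroporphyrinogen-III synthase, of the shared porphyrin route, fell in 11 of 12 contigs.

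**Figure D5:**
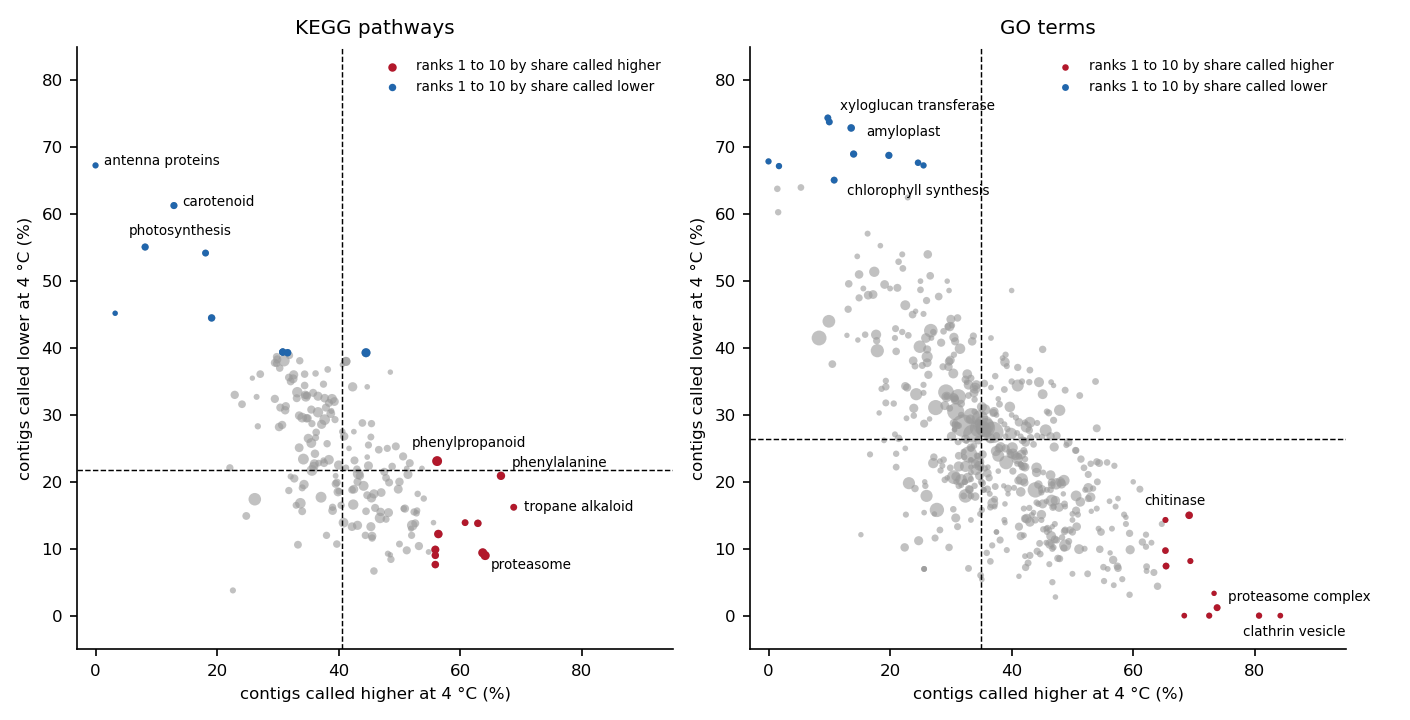
Each point is a KEGG pathway (left panel) or GO term (right panel), placed by the share of its tested contigs called higher at 4 °C (x axis, %) and called lower at 4 °C (y axis, %) against roots not stored; point size grows with the number tested, and dashed lines mark the shares over all contigs with a pathway (40.5% and 21.7%) or GO term (34.9% and 26.4%). Proteasome and clathrin terms lie at the lower right and antenna protein, amyloplast and xyloglucan terms at the upper left.

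Some of the largest shifts in counts lay in contigs with no product description, which were chosen after their values were seen. The contig comp47778_c7, of 955 bases and without any annotation, had 15900, 18100 and 14100 CPM at 4 °C, against 446, 319 and 292 CPM in roots not stored (log2 fold change 5.51 ± 0.19 SE, edgeR adjusted p = 1.6e-09), and 1620 CPM on average at 14 °C. The contig comp98460_c6, of 645 bases, had 3710, 4710 and 3600 CPM at 4 °C, against 33.7, 34.4 and 32.5 CPM in roots not stored (log2 fold change 6.90 ± 0.16 SE, edgeR adjusted p = 3.9e-10). In the other direction comp38403_c1, of 10898 bases, had 29.4, 8.28 and 6.61 CPM at 4 °C, against 3150, 2060 and 2480 CPM in roots not stored, a log2 fold change of -7.44, or -8.42 without replicate 1 at 4 °C. It was as low at 14 °C, with a mean of 3.66 CPM. TAR1-A (comp76979_c1), whose symbol is that of a yeast reading frame lying opposite ribosomal RNA, had 11500, 12000 and 11900 CPM at 4 °C, against 32000, 43100 and 39800 CPM in roots not stored (log2 fold change -1.70 ± 0.15 SE, edgeR adjusted p = 1.9e-06). Both groups were well apart for each of these 4 contigs.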

How the data were processed

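The deposited table held estimated counts (fractional expected counts) made by the authors for each contig and library, per the file headers, beside TPM and RPKM, which were not used here. Between 18.7% and 22.6% of a library's values were whole numbers, to within 1e-08. Tools listed in the submitters' processing notes, without roles, are DESeq2, edgeR, StringTie 1.3.4d, HISAT2 2.0.4 and cutadapt 1.9; the counting tool and strand are not given in the sources used here. Symbols, descriptions, KEGG and GO terms are the authors'. None of the contig identifiers matched the RefSeq gene table (0 of 110110), and no contig sequence was used.

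Counts were rounded and tested in edgeR 4.0.16 (TMM scaling, filterByExpr, robust quasi-likelihood fit over all 9 libraries, contrast of 4 °C and not stored, false discovery rate of 0.05 by Benjamini-Hochberg) under R 4.3.3. The SE of each log2 fold change was its absolute value divided by the square root of the quasi-likelihood F statistic. CPM were counts divided by TMM-scaled totals. Sums over lists were compared with an exact two-sided permutation test, computed in Python with numpy. On simulated data made from these libraries the test was checked for recovery of known changes. No outcome of that check is given here, and nothing about scaling or error control in the real data is drawn from it. Alternatives included DESeq2 1.42.0 and limma-voom (limma 3.58.1). Tables and figures used Python 3.11.15, numpy 2.4.6, pandas 2.3.3 and matplotlib 3.10.9.

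Of 94 gene lists, 90 had tested contigs. The lists, the rules and the comparison were chosen with earlier results of these data known. Named contigs were, in each direction, 10 large changes among contigs with a product description, 1 per description, and so not the 10 largest of all. Their higher group had 5 CPM or more and their lower group 10 counts or more. All of these passed the test and had separate groups of libraries, so the gaps noted for them partly follow from how they were picked. Also named were, in each direction, the 5 highest with no count in the other group. To these were added 1 or 2 contigs per list with the highest mean, and the 10 highest described contigs of each group; of these a selection is printed. Floors cover counting error only, whereas SD and SE values include the spread between pools. The labels name no molecular barcodes.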

Additional observations from a re-analysis of the deposited data

How the results depend on the processing

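The count of called contigs, 49812, was 44095 to 51500 under the other scalings, no filter, the 2 groups alone, DESeq2, limma-voom, leaving out the top 100 contigs by count, and the libraries left out in turn, 37439 with a change of at least 2-fold and 34724 of 51873 (66.9%) with a stricter filter. Without single libraries it was 44095 to 49484, with 21442 to 24044 higher and 22653 to 25440 lower. Summed over contigs of one symbol, 6866 of 9850 symbols passed, 3481 higher and 3385 lower, a smaller number because fewer units were tested. With library totals as the only scaling 26647 rose and 22816 fell, and the median of all contigs shifted by 0.1 on the log2 scale. With the replicate block 46420 contigs passed, 23068 higher and 23352 lower. Replicates of both groups that share a number had deviations that correlated at 0.22, 0.0846 and 0.284. Those of different number correlated at -0.253 to 0.0863. So few values cannot decide whether the numbers are pairs. The labels give no pairing, so the main fit did not take them as pairs.

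No contig taken by the naming rules or added changed sign if it was called in the main fit or in the alternative. Sign changes of contigs called in neither were not counted. PCK (comp29010_c17), not called, had counts in 1 library of roots not stored alone. Its log2 fold change of -11.47 was 0.0 without replicate 3 of that group. Depending on the setting, 200 to 211 of up to 212 stayed on the same side of the threshold, or 170 of 170 without the most abundant contigs. Among 164 counts of list members, 0 to 5 moved by more than 1.5 times, apart from 23 of 162 under the stricter filter. Depth limits contigs near the floor of 3 counts, and the pools of 7 roots limit what the spread can show.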

Other observations

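Histones, touched above only under a KEGG term, and the replication machinery rose more often than they fell. Histone contigs rose in 75 of 125 cases and fell in 7, with sums of 4470, 4140 and 4070 CPM at 4 °C, against 2610, 2430 and 1930 CPM in roots not stored. The histone H3 contig HTR4 (comp91238_c1) had 604, 655 and 542 CPM at 4 °C, against 173, 164 and 101 CPM in roots not stored (log2 fold change 2.04 ± 0.20 SE, edgeR adjusted p = 6.1e-06). A second H3 contig with the same symbol (comp58672_c1) had 536, 497 and 470 CPM at 4 °C, against 626, 517 and 339 CPM in roots not stored, and did not pass. DNA replication rose in 67 of 131 contigs and fell in 21, and DNA repair rose in 66 of 131 and fell in 13. Cyclins and cyclin-dependent kinases rose in 52 of 152 contigs (34.2%, against the background of 38.6%), fell in 18 and did not pass in 82. Histones are also the larger share of the dividing cell markers, whose part in other results was not tested.

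Among broad function classes of the table, the share higher ran from 28.9% (translation) to 49.1% (extracellular structures, with 12.3% lower). No share over all contigs with a class was computed. Intracellular trafficking, secretion and vesicular transport rose in 903 of 1901 contigs (47.5%) and fell in 249 (13.1%), and protein modification, turnover and chaperones rose in 1792 of 3959 (45.3%) and fell in 781 (19.7%). Signal transduction was near even in count, with 1494 of 4899 higher (30.5%, near the low end of the classes) and 1426 lower (29.1%). Among contigs used as internal standards in many studies, the actin AC58 (comp90600_c4) had 393, 334 and 372 CPM at 4 °C, against 2650, 2820 and 2480 CPM in roots not stored (log2 fold change -2.86 ± 0.15 SE, edgeR adjusted p = 3e-08).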
